A study of Mus musculus with 11 samples.

Results

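Hair cells (HCs) of the cochlea detect sound with a bundle of actin-filled stereocilia, and the proteins disrupted in Usher syndrome, an inherited loss of hearing and sight, hold that bundle together. Rows of 9 Usher complex genes (Myo7a, Ush1c, Ush1g, Cdh23, Pcdh15, Cib2, Clrn1, Adgrv1 and Whrn) were taken by symbol from 4 single-cell expression tables that list 24898 gene symbols in all, and each of the 9 was listed at every age. The tables hold 11 libraries of dissociated epithelium of the mouse cochlear duct floor, prepared from wild-type CD1 animals with no treatment or engineered allele. There were 2 libraries at embryonic day 14 (E14), 3 at E16, 4 at postnatal day 1 (P1) and 2 at P7, and each pooled cochleae of several animals of either sex. No library held more than one age, so age cannot be told apart from the day of collection and library preparation, and the spread between libraries is the spread between pools.

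The Usher proteins act at 2 kinds of extracellular link between stereocilia. CDH23 and PCDH15 are cadherins that join end to end as the tip link, the filament that pulls on the mechanotransduction channel, and the motor MYO7A with the scaffolds USH1C (harmonin) and USH1G (SANS) anchors its upper end. ADGRV1 (a very large adhesion receptor) and WHRN (whirlin, a scaffold) belong to the ankle links at the base of the growing bundle. CIB2 is a calcium-binding subunit of the transduction complex at the lower end of the tip link, and CLRN1 is a small membrane protein of the HC.

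HCs were selected by 14 marker genes that include none of the 9: a cell with 5 or more of them detected was an HC, a cell with 2 or fewer was a non-hair cell, and the 296 cells in between were left out. Of 30634 cells, 1985 were HCs (63 from E14, 601 from E16, 1056 from P1 and 265 from P7) and 28353 were non-hair cells. Inner (IHC) and outer (OHC) HCs were separated by their own markers into 18, 82, 189 and 88 IHCs and 0, 95, 663 and 161 OHCs at the 4 ages, and HCs without a clear set of either had no type. In HCs the 14 markers summed to 9090 to 21506 CPM (the mean over cells of each gene's share of the cell's transcripts, scaled so that all genes sum to 1000000) against 64.7 to 142 CPM in non-hair cells of the same libraries. Markers of the wrong type were present in typed HCs at P7, where IHCs held 767 to 2675 CPM of OHC markers and 129 of the HCs had 2 or more markers of both types. HCs with 4 or more markers of one non-hair class made up 30.2% of HCs (E14), 10.3% (E16), 19.7% (P1) and 17.4% (P7), and cells in which another cell's transcripts are mixed were not otherwise removed.

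Libraries held 3828399 to 23523802 transcripts counted by unique molecular identifiers (UMIs), with 2478 to 5647.5 at the median cell. Any pair of the 11 libraries shared 1 to 36 cell barcodes. UMIs were read at 3′ ends and counted once per molecule, so CPM was not divided by transcript length.

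The RefSeq sequences just upstream of an annotated start of the genes on GRCm38.p6 are shown for 4 members that were higher in HCs than in non-hair cells at P1 and for Ush1c, which was not, so that the bases next to each start can be read beside the levels. A window was available for 8 of the 9 genes (not for Ush1g), and each sequence is the gene-sense strand upstream of the annotated exon. Capitals mark matches on either strand to CAGCTG or CAGATG, the E-box letters that proneural factors such as ATOH1 bind, or to GTTGCC, part of the site that RFX factors bind. Clrn1 held CAGATG on the opposite strand (CATCTG), and Whrn and Myo7a held GTTGCC on the opposite strand (GGCAAC).
Cib2 (chr9:54560219-54560440, minus strand): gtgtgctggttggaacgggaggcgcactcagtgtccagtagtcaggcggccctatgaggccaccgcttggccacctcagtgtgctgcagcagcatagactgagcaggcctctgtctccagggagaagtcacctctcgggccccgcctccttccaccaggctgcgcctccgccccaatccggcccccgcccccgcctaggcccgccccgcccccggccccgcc
Myo7a (chr7:98119525-98119743, minus strand): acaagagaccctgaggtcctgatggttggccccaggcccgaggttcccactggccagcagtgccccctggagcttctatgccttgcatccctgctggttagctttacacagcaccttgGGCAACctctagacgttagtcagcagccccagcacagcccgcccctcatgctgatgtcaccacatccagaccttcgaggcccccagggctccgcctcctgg
Clrn1 (chr3:58885341-58885462, minus strand): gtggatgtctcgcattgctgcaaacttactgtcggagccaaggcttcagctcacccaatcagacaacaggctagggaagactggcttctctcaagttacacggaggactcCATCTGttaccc
Whrn (chr4:63495992-63496241, minus strand): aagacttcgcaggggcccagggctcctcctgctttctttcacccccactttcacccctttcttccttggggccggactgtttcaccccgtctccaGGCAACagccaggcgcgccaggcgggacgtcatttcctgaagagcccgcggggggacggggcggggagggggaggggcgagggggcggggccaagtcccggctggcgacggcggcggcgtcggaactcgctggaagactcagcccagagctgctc
Ush1c (chr7:46238504-46238740, minus strand): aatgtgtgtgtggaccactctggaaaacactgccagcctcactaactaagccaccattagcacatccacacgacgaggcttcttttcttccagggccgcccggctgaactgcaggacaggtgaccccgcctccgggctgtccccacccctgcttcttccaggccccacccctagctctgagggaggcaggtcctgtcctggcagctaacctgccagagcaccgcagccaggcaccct
Among 32851 RefSeq windows of 250 bases, 13.0% held CAGCTG, 14.4% CAGATG and 10.4% GTTGCC, and of the 5 printed sequences Whrn and Myo7a shared a motif. The windows of Cdh23, Pcdh15 and Adgrv1 held none of these letters, and that of Pcdh15 (chr10:73821617-73821866, plus strand) lies inside the span of the gene. In the GENCODE annotation of the same build, Pcdh15 spans 1550.4 kb of chromosome 10 and overlaps 3 other genes on its own strand, and Adgrv1 spans 538.1 kb of chromosome 13 and overlaps 1. These are overlaps of whole gene spans, and whether exons share bases or how reads there were counted was not tested.

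The first comparison asked which members differed between HCs and the other cells of the epithelium. Levels were compared between HCs and non-hair cells of the same libraries with limma on log2(CPM + 10), a scale that understates the change of low genes, and p-values were adjusted over 9318 genes. At P1, 7 members were higher in HCs and Ush1c was lower, of 8 tested. Across all genes tested at P1, 39.9% were higher in HCs and 31.9% lower. At E14 3 members were higher of 8 tested (background 3.98% higher, 5.62% lower). When either E14 library was left out 5 members were higher, and all genes gave 774 higher of 9315 without replicate 1 and 1073 of 9337 without replicate 2, against 371 of 9318 with both. The lone library was then assumed to vary like those of the other ages, as in each fit without a P7 library. At E16 7 were higher (background 20.7% and 21.1%), and P7 gave 7 as well (background 32.2% and 28.4%). Cdh23, Myo7a, Clrn1 and Adgrv1 were under 10 CPM in non-hair cells of every library and Whrn averaged under 10 CPM there over the libraries, so these 5 entered the test through their level in HCs, and these counts describe them without supporting a difference from other genes. Ush1g had a mean below 10 CPM over both classes and was not tested here. Each call was also tried with other settings than a left-out library (another pseudocount, filter, averaging, gate, weighting or block). Calls lost there were those of Adgrv1 at E14 (6 of 13 settings), Whrn at E16 (7 of 13) and Ush1c at P1 (5 of 13).

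**Figure D1:**
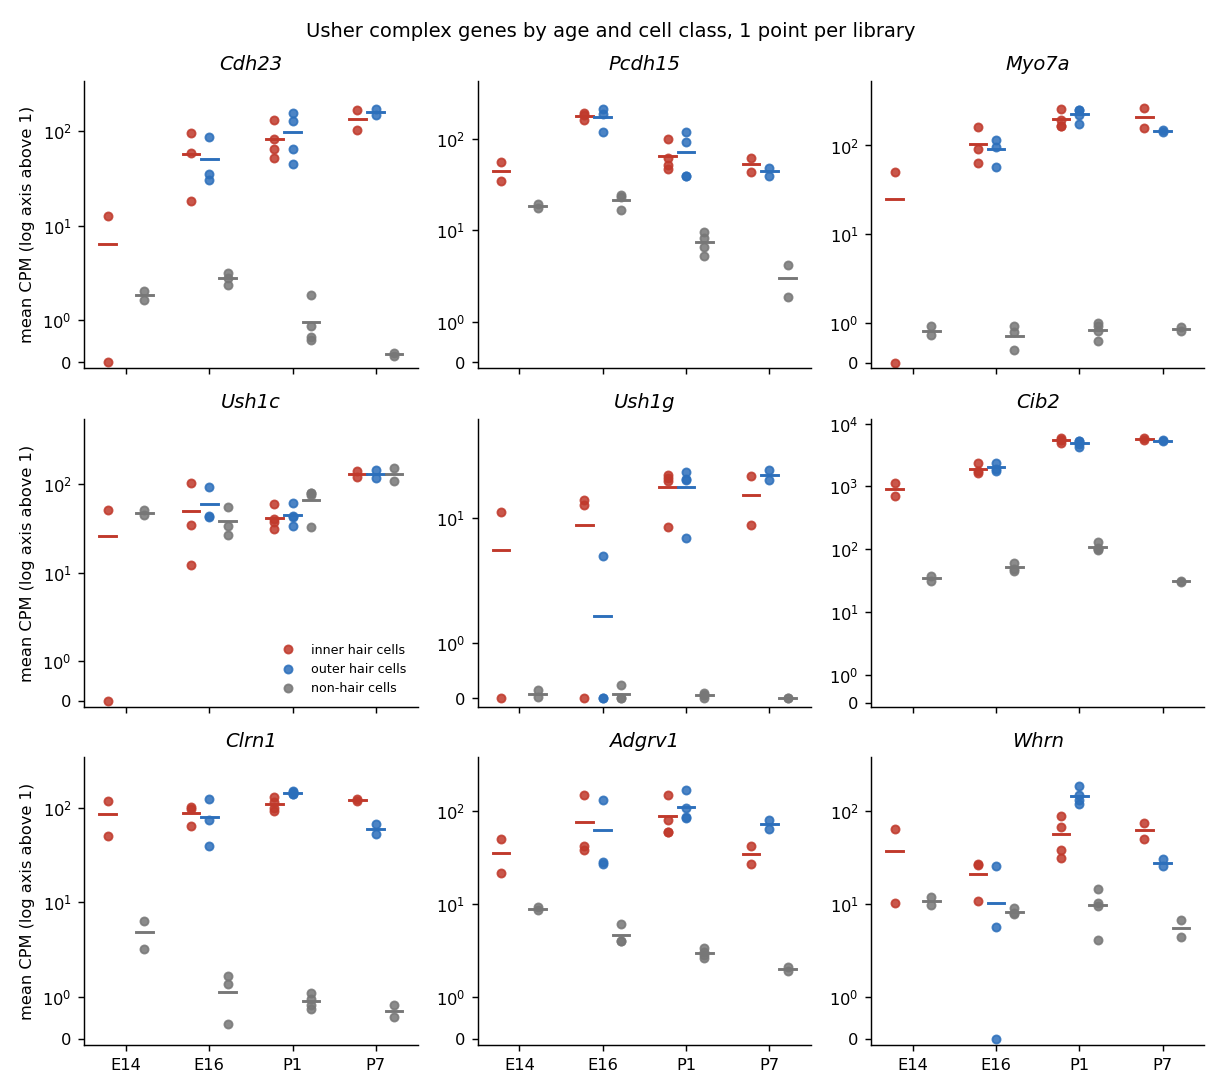
Mean level of each of the 9 Usher complex genes (CPM, vertical axis logarithmic above 1 and linear below) at the 4 ages in IHCs (red), OHCs (blue) and non-hair cells (grey), with a point per library and a bar at the mean. Cib2 in IHCs lay at 694 to 1125 CPM at E14 and 4915 to 5827 at P1, above non-hair cells at each age. The E14 IHCs were 6 and 12 cells, with medians of 14060 and 8715.5 UMIs against 4484.5 and 4479 in HCs of no type. The points of Ush1c in non-hair cells overlap those of HCs in range at each age, with 3 of 4 above them at P1.

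Cib2 was the most abundant member. In HCs it stood at 776 and 578 CPM in the 2 E14 libraries, at 1686, 1656 and 1773 (E16), at 4519.5, 5224, 5181 and 4298 (P1) and at 5422 and 5419 (P7). Non-hair cells of those libraries held 31.5 to 36.8 CPM (E14), 45.4 to 59.8 (E16), 98.4 to 128 (P1) and 30.4 to 31.7 (P7). No HC value overlapped a non-hair value at any age. The log2 difference went from 3.95 ± 0.21 (SE, adjusted p = 3.40e-11) at E14 through 4.84 (E16) and 5.43 ± 0.08 (SE, adjusted p = 2.05e-22) at P1 to 7.05 ± 0.14 (SE, adjusted p = 6.73e-20) at P7. The non-hair level of Cib2 was 1.88% to 2.84% of the HC level at P1 and 0.561% to 0.584% at P7. That of Myo7a was 0.224% to 0.501% (P1) and 0.517% to 0.52% (P7), that of the HC gene Lhfpl5 0.0291% to 0.287% and 0.0597% to 0.186%, and that of the HC gene Espn 2.84% to 5.34% and 0.685% to 0.911%. Whether free RNA of HCs contributed to the non-hair level of Cib2 was not tested.

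Both tip-link cadherins were called higher in HCs from E16 on, although Cdh23 entered the test through its HC level. Cdh23 in HCs was 17.8 and 6.03 CPM (E14), 74.0, 62.0 and 48.5 (E16), 61.0, 133, 135 and 45.2 (P1) and 149.8 and 147 (P7). Its non-hair level was 1.62 to 2.05 CPM (E14) and 0.148 to 0.221 (P7). HC and non-hair values of Cdh23 did not overlap at any age, but the log2 difference at E14, 0.83 ± 0.47 (SE, adjusted p = 0.326), did not pass the test. It was 2.47 ± 0.25 (SE, adjusted p = 3.28e-08) at E16, 3.38 at P1 and 3.96 ± 0.30 (SE, adjusted p = 2.96e-10) at P7. Pcdh15 in HCs was 53.2 and 45.1 CPM (E14), 171, 131 and 107 (E16), 47.0, 94.3, 105 and 44.9 (P1) and 50.8 and 44.8 (P7). In non-hair cells Pcdh15 was at 17.5 and 19.5 CPM (E14), where Cdh23 was at 2.05 and 1.62, at 23.1, 24.7 and 16.8 (E16), where Cdh23 was at 2.80, 2.37 and 3.13, and at 1.84 and 4.13 (P7). The log2 difference between HCs and non-hair cells was 1.05 ± 0.36 (SE, adjusted p = 0.0726) at E14, 2.14 ± 0.19 (SE, adjusted p = 5.03e-09) at E16 and 2.32 ± 0.13 (SE, adjusted p = 9.42e-13) at P1. At E14 limma called Pcdh15 higher without library weights (adjusted p = 0.00252), with the stricter gate (0.0236) and with each age in its own fit (0.0422). It also did so with the mean of the deposited natural-log values (0.0453) and against lateral supporting and prosensory cells alone (0.0346). The remaining settings, left-out libraries aside, did not call it.

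The proteins of the upper tip-link density were not alike: Myo7a and Ush1g were at most 1.01 CPM in non-hair cells as a whole, and Ush1c was not. Myo7a in HCs was 0 and 22.7 CPM (E14), 73.6, 61.5 and 72.4 (E16), 161, 217, 248 and 200.5 (P1) and 153 and 175 (P7), against 0.688 to 0.924 CPM in non-hair cells at E14 and 0.555 to 1.01 at P1. Among classes of non-hair cells it reached 7.08 and 7.70 CPM in glia at P7, from 48 and 127 cells with 155301 and 484729 UMIs of all genes. Those values thus rest on few Myo7a UMIs. In the lateral supporting class, which includes lateral prosensory cells at E14 and E16, it was 0 and 9.21 CPM (E14) and 7.85, 2.18 and 1.11 (E16), from 47 to 216 cells a library. In the first E14 library the 26 HCs held no Myo7a UMI, which allows a level of up to 16.4 CPM and a share of cells with a UMI of up to 11.5%, counting error alone considered. The log2 difference of Myo7a was 0.74 ± 0.37 (SE, adjusted p = 0.258) at E14 and 4.39 ± 0.14 (SE, adjusted p = 3.35e-17) at P1. Without E14 replicate 1 the E14 value was 1.58. Myo7a too entered the test through its HC level, so these differences are a description. Ush1g was low, with 11.1 and 1.67 CPM in HCs at E14, 22.8, 19.4 and 9.50 (E16), 9.92, 16.8, 22.3 and 23.0 (P1) and 16.8 and 20.8 (P7), and its non-hair level was at most 0.250 CPM.

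Ush1c was measured in both classes. Its HC level was 46.6 and 82.4 CPM (E14), 81.7, 41.4 and 42.1 (E16), 37.0, 51.2, 58.2 and 47.6 (P1) and 123 and 137 (P7). Its non-hair level was 50.5 and 44.6 CPM (E14), 26.8, 34.0 and 55.7 (E16), 80.4, 79.4, 76.0 and 33.1 (P1) and 151 and 109.8 (P7). The ranges of the classes overlapped at each age. At P1 Ush1c was lower in HCs in 3 of 4 libraries, by 0.41 ± 0.16 (SE, adjusted p = 0.0292) on the log2 scale, and this call was lost without P1 replicate 1 (adjusted p = 0.10), replicate 2 (0.15) or replicate 3 (0.080) and under 5 of 13 other settings (up to 0.19). At E14, E16 and P7 the differences were 0.33 (95% interval -0.57 to 1.23), 0.30 (-0.17 to 0.77) and 0.01 (-0.56 to 0.58), which did not pass the test and do not show the levels to be equal. Without E16 replicate 3 limma called Ush1c higher in HCs at E16 (0.77, adjusted p = 0.0399). Against lateral supporting cells alone it called Ush1c lower in HCs at P7 (-0.97, adjusted p = 0.0101).

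Clrn1 and the ankle-link genes were higher in HCs as well, Whrn later than the other two. Clrn1 in HCs was 37.0 and 61.3 CPM (E14), 91.1, 78.0 and 52.1 (E16), 125, 142, 127 and 137 (P1) and 80.9 and 80.0 (P7), and it was at 3.20 to 6.38 CPM in non-hair cells as a whole at E14 and under 2 CPM there after. It was one of the members already higher in HCs at E14, by 1.98 ± 0.32 (SE, adjusted p = 2.49e-04) on the log2 scale. Adgrv1 in HCs was 47.7 and 26.6 CPM (E14), 53.2, 59.0 and 36.4 (E16), 69.9, 105, 76.2 and 169.9 (P1) and 58.6 and 55.8 (P7), and its non-hair level went from 8.60 to 9.28 CPM (E14) to 1.92 to 2.1 (P7). Its E14 difference of 1.28 ± 0.38 (SE, adjusted p = 0.0351) was lost with a stricter HC gate (adjusted p = 0.34), and at P1 it was 2.98 ± 0.14 (SE, adjusted p = 3.27e-14). Whrn in HCs was 14.8 and 9.19 CPM (E14), 5.21, 27.7 and 10.8 (E16), 87.3, 115, 162 and 117 (P1) and 37.9 and 42.5 (P7), against 9.85 to 11.8, 7.77 to 8.94, 4.14 to 14.6 and 4.43 to 6.68 CPM in non-hair cells. Whrn overlapped between the classes at E14 and E16 and separated from P1 on. Clrn1, Adgrv1 and Whrn were each kept in the test through their HC level, so their differences are given as a description. Those of Whrn were 0.07 ± 0.39 (SE, adjusted p = 0.952) at E14 and 2.82 ± 0.15 (SE, adjusted p = 1.33e-13) at P1. Its E16 value of 0.52 ± 0.20 (SE, adjusted p = 0.0447) turned to -0.00865 (adjusted p = 0.99) without E16 replicate 2.

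**Figure D2:**
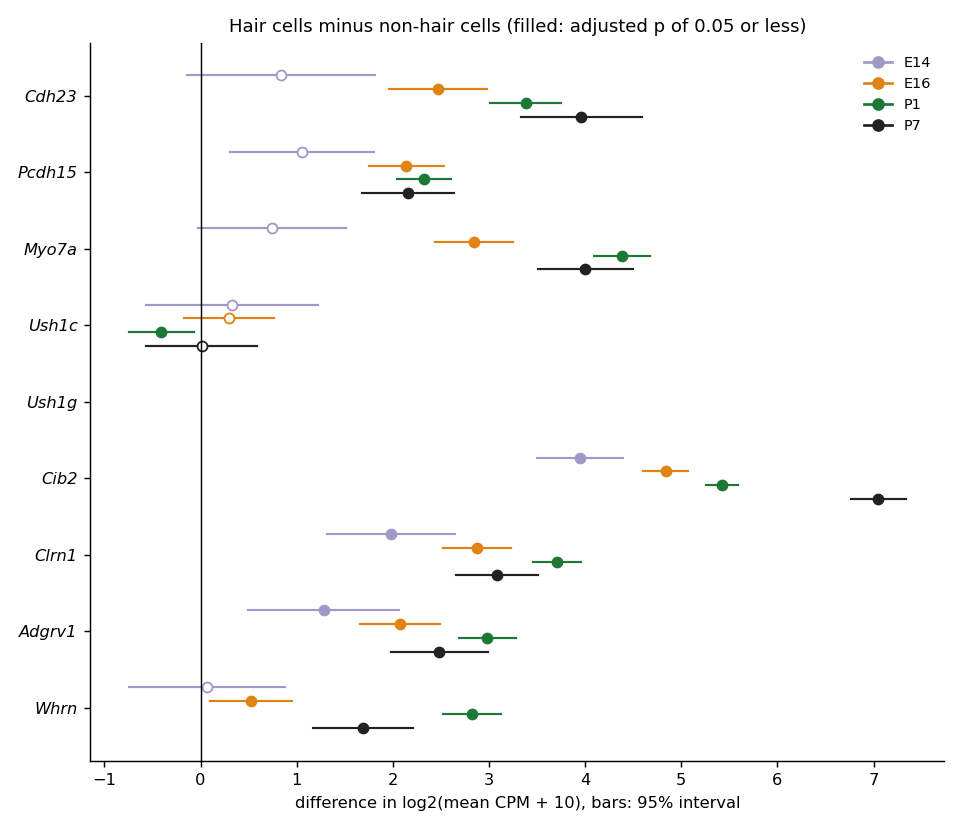
Difference of each member between HCs and non-hair cells (horizontal axis, log2(CPM + 10) scale) at the 4 ages, with bars for the 95% interval and filled points for an adjusted p of 0.05 or less in limma. Cib2 lies furthest to the right at each age (3.95 at E14 and 7.05 at P7), Ush1c lies near 0 (from -0.41 at P1 to 0.33 at E14), and Ush1g, which was not tested, has no point.

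The share of cells with a UMI followed the same division. HCs held more UMIs than non-hair cells at P1 (medians of 5340 to 9658.5 against 3746 to 5540.5 by library) and were chosen by a count of detected genes, so each cell was thinned to 1500 UMIs. After thinning Cib2 was found in 56.8% to 65.4% of HCs (E14), 77.5% to 88.6% (E16), 98.7% to 100% (P1) and 99.3% to 100% (P7), against 4.13% to 4.58% of non-hair cells at E14 and 12.7% to 15.3% at P1. Unthinned, these shares were 86.5% to 92.3% of HCs and 12.0% to 12.7% of non-hair cells at E14. Cib2 was thus found in most HCs at every age. Thinned Myo7a was found in 19.3% to 31.1% of HCs at P1 (55.4% to 77.3% unthinned) and in 0.0392% to 0.206% of non-hair cells, and thinned Ush1c in 4.39% to 9.32% of HCs and 5.31% to 11.2% of non-hair cells. At this depth the median HC showed 1 of the 9 genes at E14 and E16 and 2 at P1 and P7, and with all UMIs 2 at E14 and E16 and 4 or 5 at P1 and P7. A cell without a UMI of a gene was not shown to lack it.

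**Figure D3:**
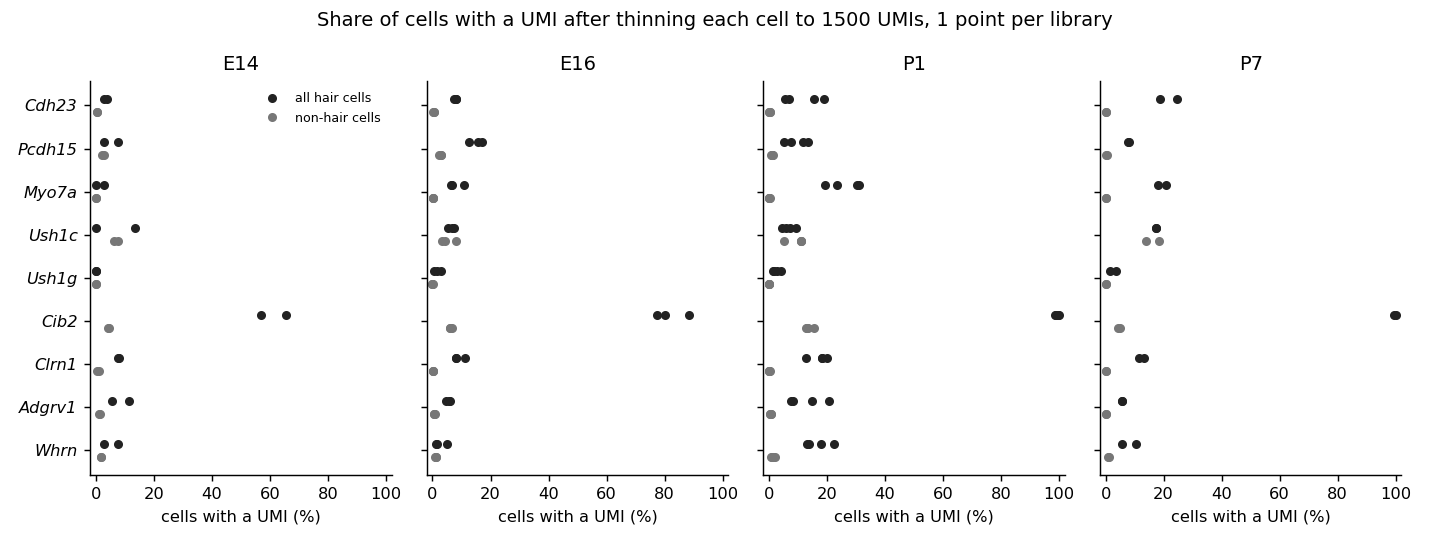
Share of cells with at least 1 UMI of each member (horizontal axis, percent) after each cell was thinned to 1500 UMIs, with a point per library for HCs (black) and non-hair cells (grey) in a panel per age. Cib2 reaches 98.7% to 100% of HCs at P1 and Myo7a 19.3% to 31.1%, while for Ush1c the points of the 2 classes lie side by side.

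By level within HCs at P1, Cib2 (4298 to 5224 CPM) stood first by mean, apart from the rest, and Myo7a (161 to 248 CPM) second, above each Clrn1 value but overlapping the ranges of Whrn and Adgrv1. Clrn1 (125 to 142), Whrn (87.3 to 162), Adgrv1 (69.9 to 169.9), Cdh23 (45.2 to 135), Pcdh15 (44.9 to 105) and Ush1c (37.0 to 58.2) followed, and each of these overlapped its neighbour in that order. Ush1g (9.92 to 23.0 CPM) was below each of the other 8.

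The age course of the members in HCs was compared next. HCs without a type were 424 of the 601 at E16, and OHCs outnumbered IHCs at P1, so the mix of HCs also differed between ages. From E14 to E16, 4 of 9 members rose (background 7.74% higher, 4.35% lower). These were Myo7a by 2.06 ± 0.36 (SE, adjusted p = 4.03e-04), Cdh23 by 1.78 ± 0.40 (SE, adjusted p = 0.00398), Cib2 by 1.31 ± 0.25 (SE, adjusted p = 9.08e-04) and Pcdh15 by 1.30 ± 0.37 (SE, adjusted p = 0.0217) on the log2 scale. The log2 changes of Clrn1 (0.58), Adgrv1 (0.48), Whrn (0.37), Ush1g (0.86) and Ush1c (-0.30) did not pass. Without E14 replicate 2 that of Clrn1 was 0.88, and without E14 replicate 1 that of Ush1g was 1.29. Pcdh15 lost the call without E16 replicate 1 (adjusted p = 0.12) or replicate 2 (0.096). Under other settings Cdh23 lost it in 3 of 11 (up to 0.0847) and Pcdh15 in 5 of 11 (up to 0.389).

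From E16 to P1, 6 members rose and 1 fell (background 21.2% and 15.5%). Whrn, the ankle-link scaffold, rose most, by 2.33 ± 0.25 (SE, adjusted p = 6.01e-08). Myo7a rose by 1.63 ± 0.21 (SE, adjusted p = 9.64e-07), Cib2 by 1.59 ± 0.15 (SE, adjusted p = 3.70e-09), Clrn1 by 0.73 ± 0.18 (SE, adjusted p = 0.00296), Cdh23 by 0.82 ± 0.23 (SE, adjusted p = 0.0067) and Adgrv1 by 0.65 ± 0.21 (SE, adjusted p = 0.0171). For Whrn, Myo7a, Cib2, Clrn1 and Adgrv1 every P1 library was above every E16 library, whereas Cdh23 at P1 lay in a low pair (45.2 and 61.0 CPM) within the E16 range or below it and a high pair (133 and 135 CPM) above it. Cdh23 lost the call without library weights (adjusted p = 0.41), without E16 replicate 2 (0.10), without P1 replicate 2 (0.060) or without P1 replicate 3 (0.094). Adgrv1 lost it without E16 replicate 2 (0.061), E16 replicate 3 (0.054) or P1 replicate 2 (0.10). Pcdh15, the partner of Cdh23, fell by 0.55 ± 0.21 (SE, adjusted p = 0.046), with 5 of the 7 libraries each able to remove the call when left out (adjusted p of 0.055 to 0.41). Those libraries were E16 replicates 1 and 2 and P1 replicates 1, 2 and 4. Other settings removed the call of Pcdh15 in 5 of 11, that of Cdh23 in 2 of 11 and that of Adgrv1 in 1 of 11, and with the mean of the deposited natural-log values Pcdh15 stood at -0.08 (adjusted p = 0.72). Ush1c (0.09) and Ush1g (0.01) did not pass.

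From P1 to P7, Ush1c rose and 3 members fell (background 14.8% and 18.9%). Ush1c rose by 1.16 ± 0.24 (SE, adjusted p = 4.28e-04), with both P7 libraries above each P1 library, while its level in non-hair cells of the same libraries was 33.1 to 80.4 CPM (P1) and 109.8 to 151 (P7). Whrn fell by 1.50 ± 0.29 (SE, adjusted p = 2.03e-04) and Clrn1 by 0.66 ± 0.21 (SE, adjusted p = 0.0165), each with both P7 libraries below each P1 library. Pcdh15 fell by 0.79 ± 0.25 (SE, adjusted p = 0.0143), although its P7 values lay near the lower P1 values and the value was 0.15 with a replicate block. In this step the replicate block leaves P7 replicate 4 against P1 replicate 4 alone, because P7 replicate 5 has a number of its own. Clrn1 lost its call without P1 replicate 2 (adjusted p = 0.061), P7 replicate 4 (0.081) or P7 replicate 5 (0.10), and Pcdh15 without P1 replicate 2 (0.056), P1 replicate 3 (0.13), P7 replicate 4 (0.055) or P7 replicate 5 (0.13). Other settings removed the call of Clrn1 in 3 of 11, that of Pcdh15 in 4 of 11 and those of Ush1c and Whrn in 1 of 11 each, the replicate block. The values that did not pass were 0.09 for Cib2, 0.31 for Cdh23, -0.43 for Myo7a and -0.58 for Adgrv1, and Ush1g differed by less than 0.01. With the replicate block, and so from 1 library of each age, the values of Cdh23 and Adgrv1 were 1.53 and -1.39. Adgrv1 was called lower with the mean of the deposited natural-log values (adjusted p = 0.0110), with cells of more than 3000 genes left out (0.0242) and without P1 replicate 3 (0.0417). The P1 libraries are shared by the comparisons with E16 and with P7, so the steps are not independent.

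IHCs and OHCs were then compared within libraries, which asked whether the members are shared by the 2 sensory types. At E14 no OHC passed the gate and no comparison was possible. Of the 10 OHC markers, Insm1, Neurod6, Cacng2, Slc26a5 and Ocm were not listed at E14, so the gate could not use them there. Of the 8 IHC markers, Atp2a3, Cabp2 and Slc17a8 were not listed at E14. Slc26a5 and Atp2a3 were not listed at E16 either, nor Neurod6 at P7, so the markers in use differed between ages. At E16 limma called 0 of 9 members (background 0.678% higher in IHCs, 0.306% lower), and 1, Adgrv1 (1.01), had an unadjusted p under 0.05. The other log2 differences lay between -0.58 for Ush1c and 0.84 for Ush1g. Only 14 to 48 cells of each type stood behind each E16 library.

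At P1, Whrn was lower and Cib2 slightly higher in IHCs, of 9 tested (background 6.5% lower, 4.61% higher). Whrn in IHCs was 38.0, 31.0, 87.2 and 66.5 CPM and in OHCs of the same libraries 117, 146, 185 and 131 CPM. The OHC value was the higher one in 4 of 4 libraries and the ranges of the types did not overlap, with IHCs lower by 1.25 ± 0.22 (SE, adjusted p = 1.50e-05) on the log2 scale. Cib2 was 4915, 5827, 5599 and 5448 CPM in IHCs and 4678, 5310.5, 5215 and 4317 CPM in OHCs. The ranges overlapped and the difference of 0.16 ± 0.05 (SE, adjusted p = 0.0182), in the same direction in 4 of 4 libraries, was lost without P1 replicate 4 (adjusted p = 0.27) and under 7 of 12 other settings (adjusted p of up to 0.885, without library weights). Clrn1 was lower in IHCs in 4 of 4 libraries without passing the test, with a difference of -0.36 ± 0.17 (SE, adjusted p = 0.172), and so was Adgrv1, with -0.35 ± 0.19 (SE, adjusted p = 0.291). For the tip-link cadherins the 95% interval of the difference was -0.60 to 0.17 for Cdh23 and -0.48 to 0.26 for Pcdh15, and the differences of Myo7a (-0.16), Ush1c (-0.11) and Ush1g (0.07) did not pass either.

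At P7, Clrn1 was higher in IHCs, 1 of 9 (background 4.84% higher, 4.22% lower). Clrn1 was 123 and 117 CPM in IHCs and 52.3 and 67.7 in OHCs, a log2 difference of 0.90 ± 0.28 (SE, adjusted p = 0.0262), and at P1 it had been 99.9, 91.4, 114 and 129.8 in IHCs and 140.4, 149.8, 139.7 and 148 in OHCs. The order of the types was thus opposite at the 2 ages in each library. Whrn at P7 was 50.0 and 73.7 CPM in IHCs and 25.4 and 30.2 in OHCs, also the opposite order to P1, with a difference of 0.91 ± 0.36 (SE, adjusted p = 0.117) that did not pass. Adgrv1 was 27.1 and 41.7 CPM in IHCs and 79.5 and 64.4 in OHCs, a difference of -0.90 ± 0.33 (SE, adjusted p = 0.0743). The differences of Myo7a (0.47), Pcdh15 (0.21), Cib2 (0.10), Ush1c (-0.01), Cdh23 (-0.23) and Ush1g (-0.40) did not pass. The Clrn1 call at P7 was lost without P7 replicate 4 (adjusted p = 0.46) or P7 replicate 5 (0.16), and under 5 of 12 other settings (up to 0.357, without library weights). With the mean of the deposited natural-log values, Adgrv1 (lower in IHCs), Myo7a and Whrn (higher) were called as well, beside 503 higher and 499 lower of 7233 genes. Myo7a was also called with the stricter gate.

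The change of the IHC to OHC difference between ages was itself tested. Between P1 and P7 it shifted toward IHCs for Whrn, by 2.16 ± 0.42 (SE, adjusted p = 3.70e-04), and for Clrn1, by 1.27 ± 0.32 (SE, adjusted p = 0.00773), 2 of 9 members (background 3.7% toward IHCs, 2.52% toward OHCs). Whrn kept the call without P7 replicate 4 but not without P7 replicate 5 (2.01, adjusted p = 0.063), and Clrn1 lost it without P7 replicate 4 (1.08, 0.24) or replicate 5 (1.46, 0.078). Without library weights neither passed (Whrn 2.22, adjusted p = 0.10, and Clrn1 1.29, 0.37), and Clrn1 was lost under 3 of 10 such settings in all. Between E16 and P1, limma called 0 members (background 0.0765% and 0.273%), with 2 at an unadjusted p under 0.05, Whrn (-1.84) and Adgrv1 (-1.36).

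**Figure D4:**
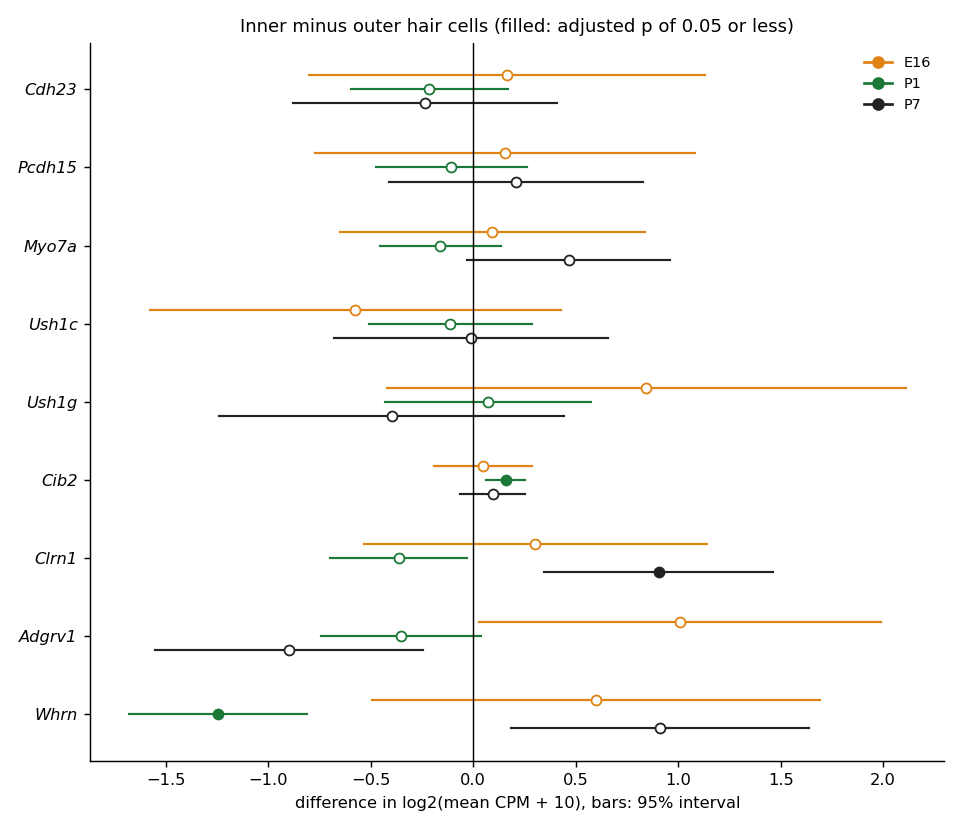
Difference of each member between IHCs and OHCs (horizontal axis, log2(CPM + 10) scale, positive where higher in IHCs) at E16, P1 and P7, with bars for the 95% interval and filled points for an adjusted p of 0.05 or less in limma. Whrn lies at -1.25 at P1 and 0.91 at P7, and Clrn1 at -0.36 and 0.90.

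Within each type, Whrn in OHCs rose from 0, 25.2 and 5.68 CPM (E16) to 117, 146, 185 and 131 (P1), by 3.11 ± 0.42 (SE, adjusted p = 7.13e-04), and stood at 25.4 and 30.2 (P7), a fall of 2.02 ± 0.48 (SE, adjusted p = 0.0151). In the E16 library with no Whrn UMI, 14 OHCs allow a level of up to 63.7 CPM. In IHCs Whrn was 10.6, 26.6 and 25.8 CPM (E16), and neither step passed (1.04 and 0.20). With the looser gate the IHC rise from E16 to P1 was called (1.47, adjusted p = 0.0368). The difference between the types in that step, -1.84 ± 0.59 (SE, adjusted p = 0.218), did not pass. In OHCs 4 members were called higher at P1 than at E16 (background 8.13% higher, 2.78% lower), namely Whrn, Cib2 by 1.29 ± 0.19 (SE, adjusted p = 0.00106), Myo7a by 1.25 ± 0.29 (SE, adjusted p = 0.0158) and Ush1g, which passed the filter through the later ages and is given by its levels alone. Ush1g in OHCs was 0, 0 and 4.96 CPM (E16) and 6.92, 20.2, 20.5 and 23.3 (P1), and the E16 libraries with no Ush1g UMI allow up to 63.7 and 19.5 CPM. The limit of 63.7 CPM lies above each P1 value and that of 19.5 CPM above the lowest. In IHCs Cib2 rose by 1.52 ± 0.21 (SE, adjusted p = 1.23e-04) and Pcdh15 fell by 1.37 ± 0.38 (SE, adjusted p = 0.0353) (background 3.6% and 2.54%). The value of Pcdh15 in OHCs, -1.27 ± 0.40 (SE, adjusted p = 0.0552), did not pass, and neither did the difference between the types in this step, -0.26 ± 0.50 (SE, adjusted p = 0.955). From P1 to P7, Ush1c rose in OHCs by 1.37 ± 0.40 (SE, adjusted p = 0.0452) and Whrn fell (background 3.94% and 5.55%). The change of Clrn1 in OHCs, -1.15 ± 0.39 (SE, adjusted p = 0.0876), did not pass. It was called with the looser gate (adjusted p = 0.0251), with the mean of the deposited natural-log values (0.0342) and without E16 replicate 1 (0.0150) or replicate 3 (0.0332). In IHCs limma called 0 members over that step (background 0.968% and 1.77%), and 1, Ush1c, had an unadjusted p under 0.05, with 1.45 ± 0.65 (SE, adjusted p = 0.354). The step of Ush1c did not pass as a difference between the types, at 0.10 ± 0.39 (SE, adjusted p = 0.937). Apart from Cib2 in both types and Whrn from E16 to P1, each of these calls was lost when at least 1 library was left out. Myo7a lost its call without P1 replicate 2 (adjusted p = 0.064) or replicate 3 (0.063), the fall of Whrn without P1 replicate 3 (0.064), P7 replicate 4 (0.17) or P7 replicate 5 (0.14), and Ush1c in OHCs without any of the P1 or P7 libraries (0.074 to 0.41). Ush1g lost it without 5 of the 7 libraries (0.053 to 0.13) and Pcdh15 in IHCs without 6 of the 7 (0.054 to 0.087). Other settings removed the call of Pcdh15 in IHCs in 6 of 10, that of Ush1g in 4 of 9, that of Myo7a in 1 of 10, that of Ush1c in OHCs in 5 of 10 and the fall of Whrn in 2 of 10.

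Among non-hair cells, 3 members had a mean of at least 10 CPM and could be tested over age. Limma called 0 of 3 between E14 and E16 (background 2.98% higher, 4.27% lower), with 1 at an unadjusted p under 0.05. From E16 to P1 Cib2 rose by 0.95 ± 0.15 (SE, adjusted p = 0.00139) and Pcdh15 fell by 0.85 ± 0.14 (SE, adjusted p = 0.00205) (background 6.28% and 7.21%). Pcdh15 was at 5.26 to 9.71 CPM in non-hair cells at P1 and passed the filter through its E14 and E16 levels, so its fall is a description. The change of Ush1c over this step, 0.64 ± 0.27 (SE, adjusted p = 0.137), did not pass. Ush1c was called higher without P1 replicate 4 (0.90, adjusted p = 0.0109), with a replicate block (0.90, 0.0200) and with the mean of the deposited natural-log values (0.83, 0.0243). From P1 to P7 Cib2 fell by 1.51 ± 0.17 (SE, adjusted p = 3.78e-05) (background 10.5% and 11%), while Cib2 in HCs of the same libraries stood at 4298 to 5224 CPM (P1) and 5419 to 5422 (P7). The make-up of the non-hair cells differed between these ages. Medial floor cells, with a mean of 121 CPM of Cib2 at P1, were 60.9% to 67.8% of a P1 library and 18.5% to 19.9% of a P7 library, cells placed in no class went from 14.5% to 20.4% (P1) to 55.0% to 62.9% (P7), and glia, with 8.35 CPM, went from 0 cells to 2.7% to 7.93%. Within medial floor cells Cib2 was at 27.1 and 28.4 CPM at P7, and the part of the make-up in the change was not tested. The change of Ush1c in non-hair cells, 0.91 ± 0.31 (SE, adjusted p = 0.0538), and that of Pcdh15, -0.43 ± 0.16 (SE, adjusted p = 0.0797), did not pass, but 2 members were called without P1 replicate 1 and 3 without P1 replicate 4, in which Ush1c stood at 33.1 CPM. The calls over all genes in these fits were 1034 higher and 1240 lower of 8845 without P1 replicate 1, 1356 and 1249 of 8787 without P1 replicate 4, and 925 and 967 of 8805 with each library.

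The classes of non-hair cells, each selected by 8 markers, differed in Ush1c and Cib2 at P1. Medial floor cells are those of Kölliker's organ and the interdental region, lateral supporting cells surround the OHCs, and lateral non-sensory cells lie beyond them. At E14 and E16 the lateral supporting class also takes in lateral prosensory cells. Ush1c at P1 was 100.4, 114, 93.2 and 54.8 CPM in lateral supporting cells and 75.1, 69.6, 70.4 and 31.8 CPM in medial floor cells, and Cib2 was 74.2, 67.7, 57.0 and 65.3 CPM and 151, 108, 116 and 110.0 CPM. Within libraries Ush1c was higher in lateral supporting cells by 0.50 ± 0.10 (SE, adjusted p = 0.00193) and Cib2 lower by 0.78 ± 0.10 (SE, adjusted p = 7.64e-05), each in 4 of 4 libraries, as the 2 members tested (background 25.3% higher, 16.2% lower). Ush1c lost the call under 1 of 9 other settings, the fit without the library block that pairs the classes (adjusted p of 0.31). At P7 Ush1c was 256 and 271 CPM in lateral supporting cells and 175 and 142 CPM in medial floor cells, and lateral supporting cells were above the HCs of the same libraries (123 and 137 CPM). The means of Cib2 in lateral supporting and medial floor cells were 62.2 and 34.9 CPM at E14, 54.1 and 54.7 CPM at E16 and 25.0 and 27.8 CPM at P7, with no test at these ages. Clrn1 in lateral non-sensory cells was 10.9, 1.07 and 0 CPM (E16) and 2.32, 3.68, 21.1 and 6.23 (P1), from 34 to 139 cells a library at P1, against 0.600 to 0.964 CPM in medial floor cells at P1. In lateral non-sensory cells Ush1c had means of 87.9, 74.7, 96.6 and 79.9 CPM from E14 to P7. Pcdh15 at E14 was at 25.0 CPM in medial floor cells, 19.8 in lateral non-sensory cells and 4.83 in the lateral supporting class, from 47 and 52 cells.

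**Figure D5:**
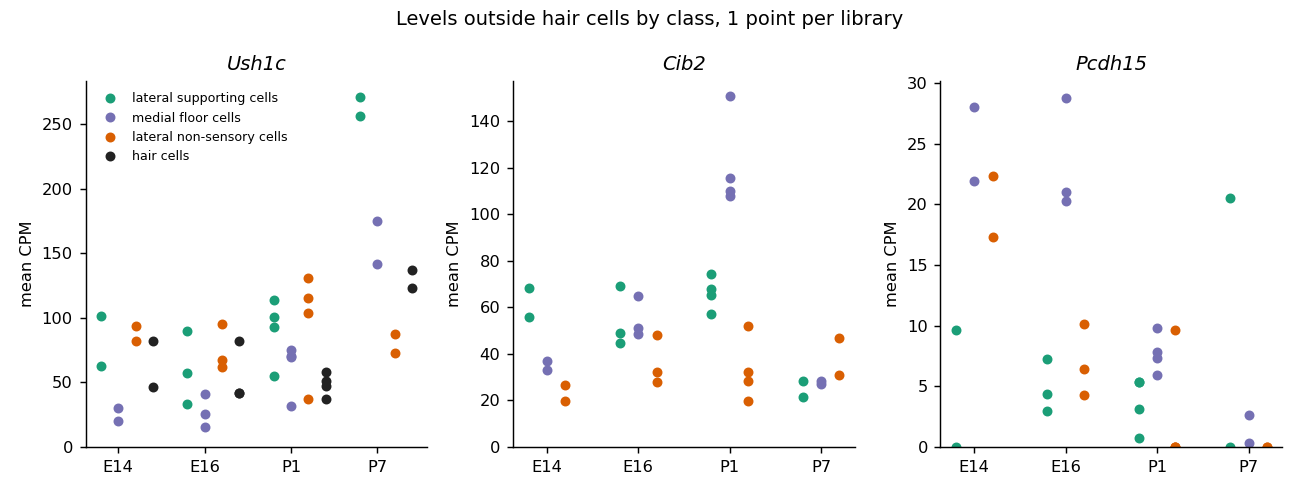
Mean level of Ush1c, Cib2 and Pcdh15 (vertical axis, CPM, linear from 0) in 3 classes of non-hair cells at the 4 ages, with a point per library and, for Ush1c, HCs in black. At P7 Ush1c in lateral supporting cells (256 and 271 CPM) lies above each other class, and at P1 Cib2 in medial floor cells (108 to 151 CPM) lies above the other non-hair classes.

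Known partners of the Usher proteins in the bundle were counted from a list of 15, of which 10 were tested between HCs and non-hair cells. Higher in HCs were 4 at E14 (background 3.98% higher), 8 at E16 (20.7%), 9 at P1 (39.9%) and 7 at P7 (32.2%), and none of the 10 was lower. Myo3a, among the 10, was not listed at E14 and could not be called there. Lhfpl5 and Tomt were at most 5.03 and 1.82 CPM in non-hair cells of any library, and Pdzd7, Myo3a and Tmie had means under 10 CPM there at each age, so these too entered the test through HCs, and the counts describe the list without supporting a difference. Those at E14 included Lhfpl5, a subunit at the lower end of the tip link (4.27), Tmie, a subunit of the transduction channel (3.51) and Espn, which bundles actin (2.1). At P1 Lhfpl5 (7.06), Tomt (5.56), needed for the channel to reach the bundle, and Espn (4.16) stood beside 4.39 for Myo7a and 3.38 for Cdh23, while Vezt, an adherens junction protein, did not pass. In HCs over age 3 partners were called higher at E16 than at E14 (Espn, Lhfpl5 and Tomt, by 1.45, 2.50 and 2.32, while Myo3a has no E14 values here and is left out of this count) and 6 between E16 and P1. The 11 tested include Myo3a, and the background (7.74% and 21.2% higher) likewise keeps genes not listed at E14. From P1 to P7, 1 of the 11 rose and 2 fell (background 14.8% higher and 18.9% lower). Tmc1, the pore-forming channel subunit, rose by 2.25 ± 0.27 (SE, adjusted p = 1.92e-07), and of those that fell Lhfpl5 is reported here, with a fall of 0.74 ± 0.21 (SE, adjusted p = 0.00817). Of 4 genes of the intestinal brush border complex that is built like the Usher complex, Myo7b was listed at P7 and the others were listed at no age. Myo7b had a mean of 0.222 CPM in non-hair cells and 0 in HCs. The HCs of the P7 libraries held 893329 and 1054876 UMIs, too few to tell 0.222 CPM from 0.

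The genes whose levels varied most like each member were found over 31 profiles (IHCs, OHCs and non-hair cells of each library), as a description, since the profiles share libraries and the contrast of HCs with other cells. They were Pcp4 (r = 0.974) and Espn (r = 0.973) for Cib2, Ppp1r27 (r = 0.968), Cxcl14 (r = 0.961) and Gm30191 (r = 0.959) for Myo7a and Bdnf (r = 0.971), Ankrd24 (r = 0.970) and Sema5b (r = 0.961) for Clrn1. For the cadherins they were Camk2b (r = 0.955), Espnl (r = 0.954) and Cpne9 (r = 0.951) for Cdh23 and Nrxn3 (r = 0.909), Ccp110 (r = 0.897) and Tmem107 (r = 0.892) for Pcdh15. For the ankle-link genes they were Rbfox2 (r = 0.930), Casz1 (r = 0.925) and Fcho1 (r = 0.913) for Adgrv1 and Polb (r = 0.867), Mprip (r = 0.860) and Mvb12b (r = 0.844) for Whrn, and for Ush1g they were AC153524.3 (r = 0.889), Hspa4 (r = 0.888) and Pdzd7 (r = 0.887). Ush1c had the lowest of these first correlations, with Neu1 (r = 0.798) and Gmppb (r = 0.734). Among the members themselves Cib2 varied with Clrn1 (r = 0.950) and Myo7a (0.944), whereas Ush1c had correlations of -0.226 to 0.139 with the other 8.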

How the data were processed

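Single cells were captured on the 10x Genomics Chromium system, and per the labels reads were aligned to mm10 with Cell Ranger 2.1.1 and processed in Seurat 2.0. The deposited values are the natural log of 1 plus each gene's share of a cell's UMIs times 10000, which the authors made after filtering cells and genes. Of the 30634 cells deposited, 2440 held more than 3000 genes. From these values UMIs were recovered as whole numbers within 2%, and depths were computed from them. 0 columns belonged to no sample of the series.

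Cells were classed by markers detected: HCs by 5 or more of 14, IHCs by 2 or more of 8 and OHCs by 2 or more of 10 (each with a lead over the other, OHCs also without Fgf8), and non-hair classes by 3 or more of 8 with a lead of 2. Most markers come from the study's own tables on these libraries, and HCs differ from other cells in depth. No doublet caller was run. Cell-mean CPM per class and library (5 or more cells) was put on the log2(CPM + 10) scale and fitted in limma (version 3.58.1, R 4.3.3), keeping genes that averaged at least 10 CPM, with a mean trend, a library block within libraries, two-sided, and Benjamini-Hochberg adjustment over all genes at 0.05. The fits of HCs against non-hair cells, IHCs against OHCs and HC age had library weights (limma arrayWeights), which the original design lacked: without them, tests on simulated data gave too many false calls. The HC levels of all 9 members are given at each age, and members that did not pass are named in part. Listed partners are named where they passed or had the largest changes, and the 3 genes most like each member by Pearson correlation are named. A few genes that these rules name are not reported here. Members and lists were chosen with earlier results of these data known. Alternatives were other pseudocounts, filters, gates, cell sets, ways of averaging and blocks, and leaving out each library. Promoter windows come from RefSeq (GRCm38.p6), the build of mm10, and gene spans from GENCODE.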

Additional observations from a re-analysis of the deposited data

Results flagged for a closer look

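In groups of 4 libraries, one member's value stood far from the other 3 on Dixon's test in 3 of the 36 groups looked at, where chance gives about 1 in 20. Cib2 in non-hair cells was 128 CPM in P1 replicate 1 against 98.4 to 103 in the other 3. Ush1c in non-hair cells was 33.1 CPM in P1 replicate 4 against 76 to 80.4. Ush1g in IHCs was 8.57 CPM in P1 replicate 2 against 19.9 to 22.3.

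The IHC to OHC difference changed between P1 and P7 for 2 members by the interaction test in limma, Whrn by 2.16 and Clrn1 by 1.27 on the log2 scale. Both changes rest on 2 P7 libraries, and without P7 replicate 5 neither passed the test.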

How the results depend on the processing

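Counts are of members called by limma, and a library was left out only in comparisons that include its age. The number of all genes called also differs between settings and is given above for only some of them. The counts below therefore show how the calls depend on the setting and do not set the members apart from other genes. 2 values changed sign. Whrn between HCs and non-hair cells at E16 was -0.00865 without E16 replicate 2 (adjusted p = 0.99), and 0.60 at the highest with another library left out. Pcdh15 in HCs between P1 and P7 was 0.15 with a replicate block, which there sets P7 replicate 4 against P1 replicate 4 alone. Of 939 values under alternatives, for 58 results, 808 kept their direction and side of the threshold.

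Leaving out 1 library at a time, HCs against non-hair cells gave 5 to 5 members at E14 (3 with both libraries). IHCs against OHCs gave 1 to 2 at P1 (1 without P1 replicate 4) and 0 to 0 at P7, and their P1 to P7 change gave 0 to 2 (1 without P7 replicate 4, 0 without P7 replicate 5). HC age gave 4 to 6 between E16 and P1 (4 without E16 replicate 2 or P1 replicate 2) and 2 to 4 between P1 and P7 (2 without P1 replicate 2, P7 replicate 4 or P7 replicate 5). Non-hair cells gave 1 to 3 between P1 and P7 (2 without P1 replicate 1, 3 without P1 replicate 4). IHCs gave 1 to 2 between E16 and P1 (2 without P1 replicate 2, 1 without any other). OHCs gave 2 to 5 between E16 and P1 (2 without P1 replicate 2) and 0 to 1 between P1 and P7 (0 without P1 replicate 3, P7 replicate 4 or P7 replicate 5).

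With no filter on low values IHCs against OHCs gave 1 at P1, 0 at P7 and 1 for their P1 to P7 change, HC age 2 (E14 to E16), 4 (E16 to P1) and 2 (P1 to P7), non-hair cells 1 (E14 to E16), IHCs 1 (E16 to P1) and OHCs 1 (P1 to P7). With cells of more than 3000 genes left out, IHCs against OHCs gave 1 at P1, 0 at P7 and 1 for their change, HC age 2 (E14 to E16) and IHCs 1 (E16 to P1). A stricter gate gave 2 for HCs (E14 to E16), and a looser gate 1 for IHCs against OHCs at P1. The mean of deposited natural-log values gave 1 at P1 and 4 at P7 for IHCs against OHCs and 1 for IHCs (E16 to P1). A pseudocount of 1 CPM gave 2 for non-hair cells (P1 to P7), 1 for IHCs (E16 to P1) and 0 for OHCs (P1 to P7), and pooling UMIs over cells gave 2, 1 and 1 in that order. Leaving out HCs with non-hair markers gave 1 for IHCs against OHCs at P1 and 1 for OHCs (P1 to P7). Without library weights, as in the original design (the weights were added later), IHCs against OHCs gave 1 at P1, 0 at P7 and 0 for their change, and HCs 2 (P1 to P7). The cause of these shifts was not tested.

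Whether replicate numbers shared by ages pair libraries could not be decided. Deviations from the age mean correlated at -0.127 to 0.0842 between same-numbered libraries and at -0.126 to 0.175 between others. At E14 and P7, with 2 libraries each, the deviations of one library mirror those of the other. A replicate block gave 1 for IHCs and 2 for OHCs between E16 and P1. From P1 to P7 that block leaves P7 replicate 4 against P1 replicate 4 alone, so no count is given. Its values in HCs over that step were 1.53 for Cdh23 and -1.39 for Adgrv1. Without the library block, which pairs the classes of a library, IHCs against OHCs gave 1 at P1 and 0 at P7, and lateral supporting against medial floor cells gave 1. Depth limits the low members most: 26 and 37 HCs stand behind the E14 values, and a library with no UMI of a member there was measured to a floor of 3 UMIs.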
